A study of Mus musculus with 4 samples.

Results

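The CpG methylation of 9 genes that write, keep, oxidise or remove DNA methylation was described in mouse embryonic stem (ES) cells. The genes were Dnmt1, Uhrf1, Dnmt3a, Dnmt3b, Dnmt3l, Tet1, Tet2, Tet3 and Tdg, 9 of 37310 annotated genes, chosen by name. A CpG site belonged to a gene if it lay between 5 kb upstream of the gene 5′ end and its 3′ end (mm9, GENCODE vM1), and sites within 1 kb of the 5′ end were kept apart from the rest. The genes held 703 of the 981048 sites that had at least 10 reads in a library. Levels were compared over the 305 gene sites that had 10 reads in all 4 libraries, of 400195 in the genome, and 125 of the 305 lay within 1 kb of a 5′ end.

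The 4 libraries came from ES cells of 2 genotypes, Chr4-cl WT and Chr4-cl KO, kept either in serum media or in 2i media with vitamin C, the latter for 1 week. Chr4-cl KO cells lack the KRAB zinc finger protein gene cluster of chromosome 4, deleted with CRISPR/Cas9, and Chr4-cl WT cells carry it. Serum media held 20% FCS and LIF. According to the study's methods, the ES cells came from a mouse strain with a CreERT gene at Rosa26, and WT and KO cells grew from individually picked clones, so a genotype cannot be told apart from its clone. There was 1 library per group, and no difference has a replicate check. The test per site therefore compares 2 libraries and not the conditions. Between the deletion guides, at chr4:144973820-147227524, serum libraries held 85282 reads for WT against 820 for KO, and 2i + vitamin C libraries held 105120 against 1467. Reads summed over CpG sites ran from 42684672 (KO, 2i + vitamin C) to 90649194 (WT, 2i + vitamin C), and the median coverage of sites with 10 reads from 25 to 50 reads. The share of reads on a gene differed between KO and WT cells by 0.715 to 1.17 times in serum and by 0.546 (Tet2) to 1.79 (Dnmt3a) times in 2i + vitamin C. CpG sites of mitochondrial DNA, read as a check on the 4 libraries, were methylated in 9.43% of 1887 reads in WT serum and in 0.985% to 1.71% of 609 to 916 reads in the others, and its part in the results was not tested. DNA methylation does not show transcript or protein levels, and neither was used here.

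In mammals, DNMT3A and DNMT3B place methyl groups on unmethylated CpG sites, DNMT3L helps them, and UHRF1 brings DNMT1 to hemimethylated DNA after replication so that the pattern is copied. TET1, TET2 and TET3 oxidise 5-methylcytosine, and TDG excises the more oxidised forms for repair by base excision. Media with 2 kinase inhibitors, called 2i, are known to lower DNA methylation in mouse ES cells, and vitamin C supports TET activity. Bisulfite sequencing does not separate 5-methylcytosine from 5-hydroxymethylcytosine, the first product of the TET enzymes, so a methylation level here is their sum.

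The sequences on which the results turn are shown 5′ to 3′ on the strand of the gene, from the mm9 genome. Capitals mark the CpG sites with 10 reads in all 4 libraries. The first line is the stretch upstream of the RefSeq start of Tet1, unmethylated in all libraries, and the next 2 are the Tet1 and Tet3 exons that differed between the lines in serum (only the coding side of the Tet3 locus is printed). The last 3 are exons of Tet3, Tet2 and Uhrf1 that were methylated in serum and fell in 2i + vitamin C by different amounts.
Tet1 upstream of the RefSeq start, chr10:62350073-62350257, minus strand: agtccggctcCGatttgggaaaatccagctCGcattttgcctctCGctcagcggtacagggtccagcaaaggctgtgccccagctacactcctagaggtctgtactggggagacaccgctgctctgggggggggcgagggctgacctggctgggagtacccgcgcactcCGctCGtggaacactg
Tet1 coding exon, chr10:62342327-62342539, minus strand: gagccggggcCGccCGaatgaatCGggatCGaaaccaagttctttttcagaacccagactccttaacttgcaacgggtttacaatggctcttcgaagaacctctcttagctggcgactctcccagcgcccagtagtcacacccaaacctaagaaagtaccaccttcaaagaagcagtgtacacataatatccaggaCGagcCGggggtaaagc
Tet3 last coding exon, chr6:83318039-83318131, minus strand: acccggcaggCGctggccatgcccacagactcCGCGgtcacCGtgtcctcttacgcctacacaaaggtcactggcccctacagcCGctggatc
Tet3 inner coding exon, chr6:83354513-83354677, minus strand: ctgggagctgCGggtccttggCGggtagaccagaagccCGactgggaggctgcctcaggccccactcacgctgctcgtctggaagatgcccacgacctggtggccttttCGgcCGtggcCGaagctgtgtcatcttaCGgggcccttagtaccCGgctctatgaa
Tet2 coding exon, chr3:133149143-133149260, minus strand: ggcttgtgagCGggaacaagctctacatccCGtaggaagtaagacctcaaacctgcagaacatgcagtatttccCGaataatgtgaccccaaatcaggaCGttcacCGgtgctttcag
Uhrf1 coding exon, chr17:56452498-56452655, plus strand: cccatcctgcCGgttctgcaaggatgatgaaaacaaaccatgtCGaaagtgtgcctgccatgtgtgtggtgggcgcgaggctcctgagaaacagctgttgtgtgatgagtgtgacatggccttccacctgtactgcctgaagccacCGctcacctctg

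Around their 5′ ends the genes measured there, apart from Dnmt3l and Tet3, were almost free of methylation in both lines and both media. Tet1 had no site with 10 reads in that window. Away from the 5′ ends most genes were methylated in serum and much less in 2i + vitamin C. A level below is the mean over sites, and the value after ± is the half-width of its 95% binomial interval, in which sites up to 100 bp apart were taken to share their reads. These intervals cover counting error only. Over the 125 sites within 1 kb of a 5′ end the level was 2.09% ± 1.54 in WT serum, 2.40% ± 1.08 in KO serum, 2.36% ± 1.08 in WT 2i + vitamin C and 1.32% ± 1.18 in KO 2i + vitamin C. Over the other 180 sites it was 38.3% ± 2.14, 45.5% ± 1.36, 17.6% ± 1.53 and 16.9% ± 2.19 in the same order. The 6 genes with 5 or more sites near the 5′ end were all under 5% there in every library, as were 90.7% of 10489 protein-coding genes in WT serum. For the 7 genes with 5 or more sites elsewhere, the median of the gene levels was 53.6% in WT serum, 64.0% in KO serum, 17.0% in WT 2i + vitamin C and 13.0% in KO 2i + vitamin C, while the medians over 7624 protein-coding genes were 46.7%, 55.2%, 16.7% and 14.4%.

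**Figure D1:**
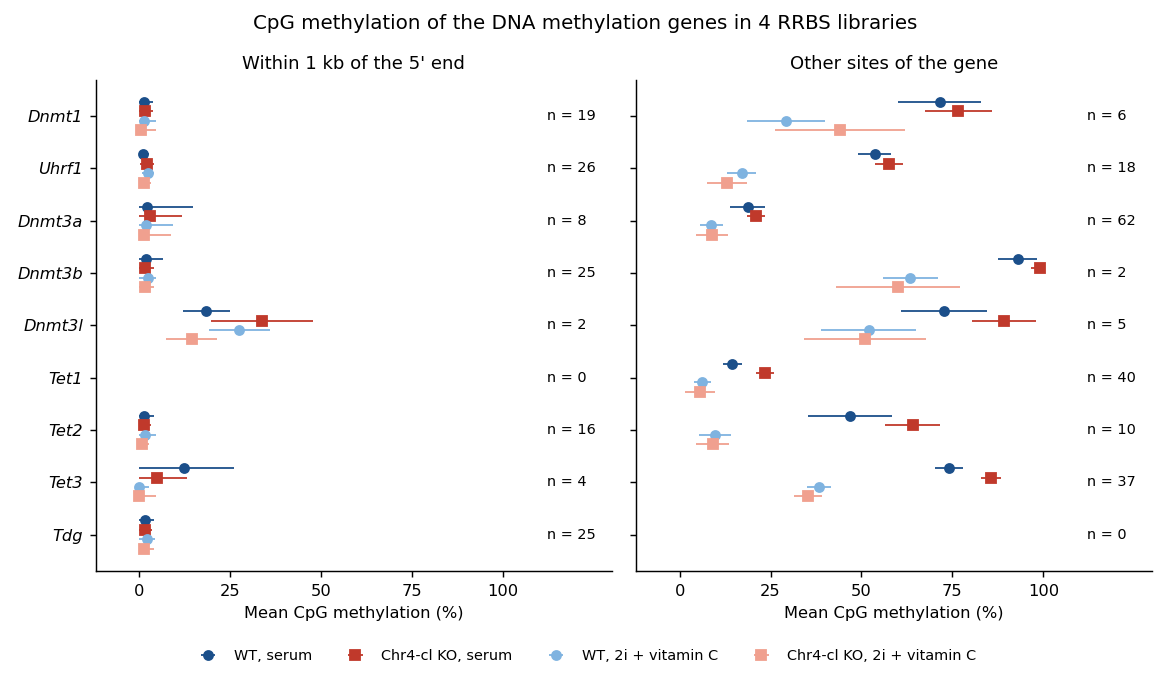
Mean CpG methylation (%, x axis) of each gene (y axis) in 4 RRBS libraries, within 1 kb of the 5′ end (left) and at the other sites of the gene (right). Points are means over n sites and bars 95% counting intervals; apart from Dnmt3l and Tet3 the left-hand points lie under 5%, while on the right the serum points lie above the 2i + vitamin C points of each gene that has sites.

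Dnmt1, the maintenance methyltransferase (chr9:20711650-20757317, minus strand), had 19 sites near its 5′ end at 1.16% ± 2.72 in WT serum, 1.61% ± 2.22 in KO serum, 1.38% ± 3.09 in WT 2i + vitamin C and 0.558% ± 3.97 in KO 2i + vitamin C. Its other 6 sites stood at 71.5% ± 11.5, 76.7% ± 9.33, 29.2% ± 10.8 and 44.2% ± 17.9. The gene was therefore methylated in serum and lower in both 2i libraries. The 4 of them in a coding exon at chr9:20713015-20713099 had 83.9% ± 16.6 in WT serum, 85.8% ± 13.1 in KO serum, 36.8% ± 15.9 in WT 2i + vitamin C and 52.5% ± 26.2 in KO 2i + vitamin C. The KO minus WT difference in 2i + vitamin C at the 6 sites was 14.96 points ± 20.9, within its counting error, although it was larger than that of 99.8% of 7624 genes.

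Uhrf1, which recognises hemimethylated CpG sites (chr17:56442744-56462909, plus strand), had 26 sites near its 5′ end at 1.11% ± 1.45, 2.12% ± 1.92, 2.35% ± 1.70 and 1.22% ± 1.99 in WT serum, KO serum, WT 2i + vitamin C and KO 2i + vitamin C. An unmethylated block of 32 sites ran from 405 to 1102 bp downstream of the 5′ end and spanned the annotated start of a shorter transcript at chr17:56443736. The 18 other sites had 53.6% ± 4.50, 57.6% ± 3.79, 17.0% ± 3.99 and 13.0% ± 5.47. In the coding exon at chr17:56452508-56452645, printed above, 3 sites had 86.7% ± 4.65 in WT serum and 92.3% ± 3.55 in KO serum, then 35.1% ± 5.64 in WT 2i + vitamin C and 32.5% ± 8.27 in KO 2i + vitamin C. An intronic block of 5 sites at chr17:56458508-56458630 had the lowest 2i levels of the methylated Uhrf1 blocks, with 72.0% ± 11.5 and 79.7% ± 11.4 in serum against 13.9% ± 9.38 and 8.97% ± 13.6 in 2i + vitamin C.

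Dnmt3a (chr12:3806007-3914443, plus strand), a de novo methyltransferase, had the most measured sites outside the 5′ window, 62, at 18.7% ± 4.84 in WT serum, 20.9% ± 2.51 in KO serum, 8.74% ± 3.04 in WT 2i + vitamin C and 8.89% ± 4.41 in KO 2i + vitamin C. That mean mixed blocks of 2 kinds. A CpG-dense block of 31 sites at chr12:3807143-3807334 lay 1136 to 1326 bp from the annotated 5′ end but within 1 kb of 2 RefSeq starts, and had 1.06% ± 9.36, 1.68% ± 4.23, 0.969% ± 5.25 and 1.07% ± 8.10. The 3 sites near the inner start at chr12:3891744, from which the shorter DNMT3A2 is made in ES cells, had 2.62% ± 1.66, 1.47% ± 1.14, 2.64% ± 1.88 and 1.90% ± 1.41. In contrast, 5 sites at chr12:3849446-3849694, 4 of them in a coding exon, had 94.6% ± 8.48 in WT serum, 94.7% ± 11.9 in KO serum, 34.7% ± 16.6 in WT 2i + vitamin C and 45.7% ± 18.6 in KO 2i + vitamin C. Intronic blocks deep in the gene were low too, with 3.44% ± 2.61 in WT serum and 6.98% ± 3.54 in KO serum at 4 sites from chr12:3825898, and 3.33% ± 11.8 and 6.98% ± 11.3 at 3 sites from chr12:3871815. The known promoters of Dnmt3a were thus unmethylated in each library, as were some of its introns, while the block at chr12:3849446-3849694 was not. The 8 sites within 1 kb of the annotated 5′ end stood at 2.08% ± 12.8, 2.90% ± 8.77, 1.76% ± 7.62 and 1.19% ± 7.65.

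Dnmt3b (chr2:153475186-153513466, plus strand), the other de novo enzyme, had 25 sites near its 5′ end at 1.88% ± 4.66, 1.60% ± 2.53, 2.35% ± 2.34 and 1.64% ± 2.40 in the order used above. These sites also lie in the antisense transcript 7530422B04Rik. Only 2 other sites were covered in all libraries, at 93.0% ± 5.37 and 99.2% ± 2.57 in serum against 63.5% ± 7.53 and 59.9% ± 17.1 in 2i + vitamin C. These were the highest 2i means among the genes, but 2 sites are fewer than the 5 set for comparing genes. Their intervals overlapped those of Dnmt3l in both lines.

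Dnmt3l (chr10:77504692-77526367, plus strand), the cofactor without catalytic activity, was with Tet3 an exception near the 5′ end, where it had only 2 sites in all 4 libraries, in an intron that overlaps the opposite-strand gene Aire. The site at chr10:77505215 had 15.5% of 71 reads in WT serum, 29.7% of 37 in KO serum, 10.8% of 65 in WT 2i + vitamin C and 6.38% of 47 in KO 2i + vitamin C. The site at chr10:77505361 had 21.4% of 70, 37.5% of 16, 44.2% of 43 and 22.5% of 49 reads. Between media, the second site was called higher in 2i + vitamin C in WT cells and the first lower in KO cells, by Fisher's exact test as defined with the calls below. Inside the gene, 5 coding sites at chr10:77520036-77520142 had 72.7% ± 11.8 in WT serum, 89.2% ± 8.80 in KO serum, 51.9% ± 13.0 in WT 2i + vitamin C and 51.0% ± 16.9 in KO 2i + vitamin C, and so kept 71.4% of the serum level in WT and 57.2% in KO cells.

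Tet1 (chr10:62267318-62361866, minus strand), which ES cells express together with Tet2, had no site with 10 reads within 1 kb of its annotated 5′ end. The RefSeq start lies 11794 bp further in, at chr10:62350072, and 24 sites around it had 1.04% ± 2.78 in WT serum, 1.64% ± 3.07 in KO serum, 1.11% ± 2.80 in WT 2i + vitamin C and 0.878% ± 5.97 in KO 2i + vitamin C. The printed upstream stretch belongs to this block. The next block, 6 sites in a coding exon at chr10:62342337-62342529, was partly methylated, with 23.5% ± 4.91, 55.8% ± 5.49, 10.5% ± 2.85 and 7.51% ± 3.32. Its middle lies 329 bp from the start of another annotated Tet1 transcript. Further into the gene, 4 intronic sites at chr10:62328445-62328630 had 5.59% ± 2.37, 16.6% ± 3.47, 2.48% ± 1.25 and 3.75% ± 2.19, and 4 coding sites at chr10:62302356-62302480 had 72.9% ± 16.4, 87.7% ± 11.2, 22.3% ± 13.3 and 24.0% ± 16.7. In all 3 of these inner blocks the KO serum library was the highest.

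Tet2 (chr3:133126643-133207354, minus strand) had 16 sites around its start at 1.16% ± 2.81, 1.37% ± 1.85, 1.69% ± 2.86 and 0.612% ± 2.00. Its coding exon at chr3:133149153-133149250, printed above, had 5 sites at 46.6% ± 21.9 in WT serum and 71.6% ± 14.4 in KO serum, then 6.52% ± 6.85 in WT 2i + vitamin C and 7.26% ± 6.90 in KO 2i + vitamin C. A second coding exon at chr3:133131002-133131049 had 3 sites at 77.7% ± 11.9, 91.4% ± 5.78, 20.3% ± 9.28 and 18.1% ± 8.51. The first exon kept 14.0% of its WT serum level in 2i + vitamin C and the second 26.1%.

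Tet3 (chr6:83312367-83391672, minus strand) had 4 sites 211 to 307 bp inside its 5′ end, with 12.2% ± 13.8 in WT serum, 4.86% ± 8.27 in KO serum and 0 methylated reads in both 2i libraries. At the site with the highest value, chr6:83391365, the level was 35.7% of 14 reads in WT serum (95% Wilson interval 16.3 to 61.2) and 8.33% of 24 in KO serum, and 0 of 39 reads in WT 2i + vitamin C allow up to 7.69%. Of 9 Tet3 sites near the 5′ end with 10 reads in both WT libraries, 3 were called lower in 2i + vitamin C, 1 of them in this block. The Tet3 coding exon blocks, apart from that of the last exon described below, were among the most methylated of all the blocks in serum. At chr6:83354523-83354667, 8 sites had 92.2% ± 3.56 and 93.6% ± 2.66 in serum against 48.7% ± 6.53 and 52.5% ± 8.59 in 2i + vitamin C. Another 11 sites at chr6:83352704-83353046 and chr6:83353492-83353875 were alike, with block levels of 88.8% to 92.6% in serum against 38.7% to 50.1% in 2i + vitamin C. At chr6:83325725-83325855 the serum levels were close to these, 87.6% ± 6.97 and 87.5% ± 7.70, but those in 2i + vitamin C were 21.6% ± 8.86 and 18.3% ± 10.8.

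**Figure D2:**
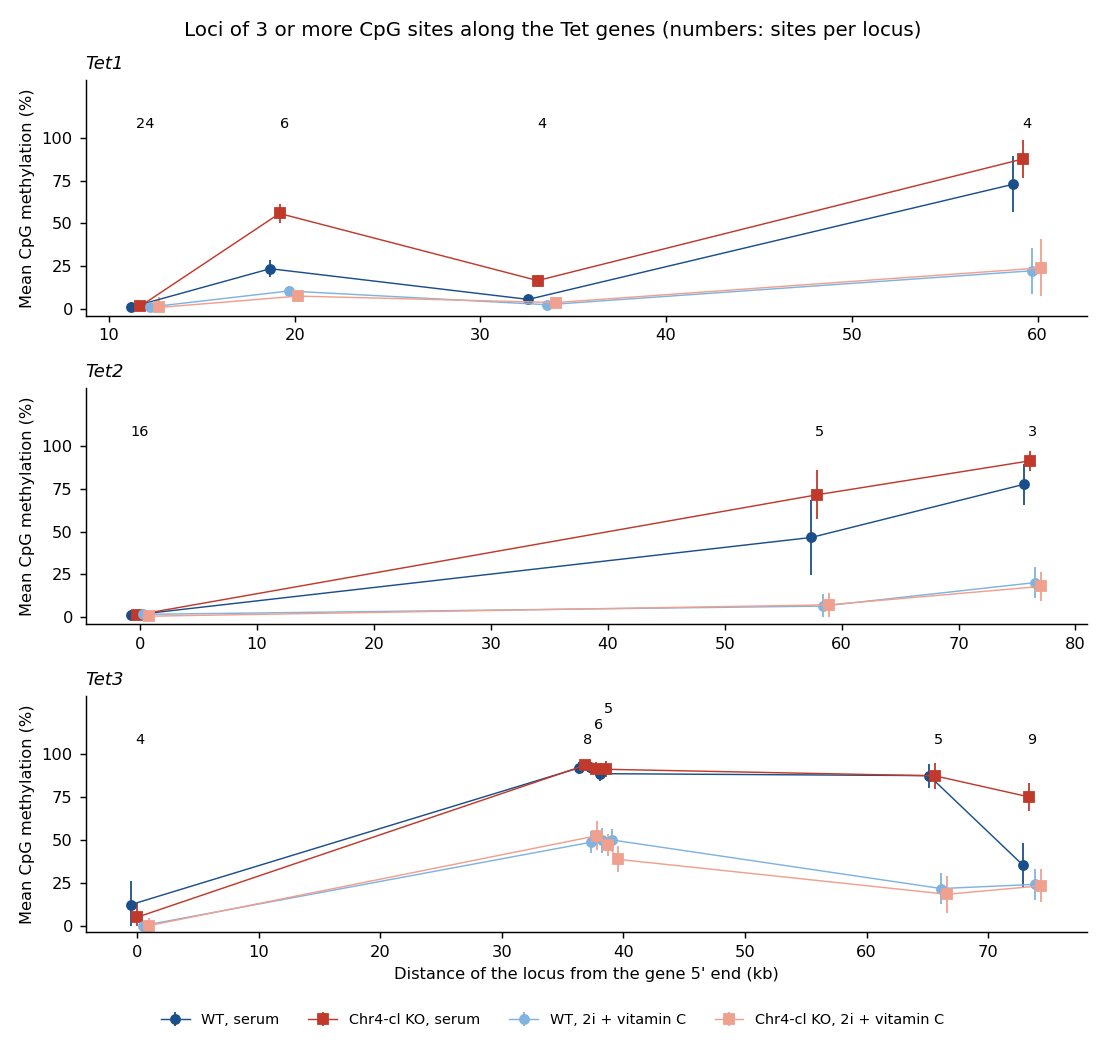
Mean CpG methylation (%, y axis) of blocks of 3 or more neighbouring CpG sites against distance from the annotated 5′ end (kb, x axis) in Tet1, Tet2 and Tet3, in 4 libraries, with the number of sites above each block. Bars are 95% counting intervals lines only link points, and points of 1 block are set side by side; the blocks nearest the start are lowest, and KO serum departs most from WT serum at 6 Tet1 sites and at the last 9 Tet3 sites.

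Tdg, which excises oxidised cytosines (chr10:82092573-82113544, plus strand), had 25 sites around its 5′ end at 1.70% ± 2.45, 1.67% ± 1.87, 2.10% ± 2.24 and 1.33% ± 2.68. No other site of the gene was covered in all 4 libraries. Of the 4 covered in some, the intronic site at chr10:82107175 had 91.7% of 12 reads in WT serum, 73.9% of 23 in KO serum and 8.89% of 45 in WT 2i + vitamin C.

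The comparison of the lines in serum asked whether loss of the KRAB zinc finger cluster went with a methylation difference. Of 417 gene sites with 10 reads in both libraries, 17 were higher in KO cells and 0 lower. A site was called where Fisher's exact test had a Benjamini-Hochberg adjusted p under 0.05 and the level differed by at least 20 points. The 17 sites are 4.08% of those tested, against 1.82% of 588613 sites of the genome called higher and 0.115% called lower. They lay in few places, since 8 were in 1 Tet3 block and 6 in 1 Tet1 block, where neighbouring sites share reads. None lay within 1 kb of a gene 5′ end, where 147 sites were tested, but the 6 Tet1 sites and a Dnmt3a site lay within 1 kb of another annotated transcript start. The share of genome sites called within that window was not counted, so the lack of calls there does not set these genes apart. Over 10489 protein-coding genes the median difference within it was 1.0 points in serum. At an unadjusted p under 0.05, 66 sites were higher and 2 lower, a count not made over the genome. Without any test, the level was higher in KO serum at 247611 of the 400195 genome sites and lower at 108002.

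The Tet3 block lies at chr6:83318001-83318121, where the last coding exon passes into the 3′ untranslated exon. Its 9 sites had 35.3% ± 13.1 in WT serum, 75.2% ± 8.36 in KO serum, 24.1% ± 9.11 in WT 2i + vitamin C and 23.3% ± 9.78 in KO 2i + vitamin C. The KO serum library thus stood apart from the other 3, among which the WT levels of the 2 media differed by less than their counting error. Single sites ran from 19.2% to 63.3% in WT serum and from 65.4% to 86.5% in KO serum. The widest gap was at chr6:83318046, with 19.2% of 47 reads in WT serum (Wilson interval 10.4 to 32.5), 72.2% of 97 in KO serum (62.5 to 80.1), 16.1% of 81 in WT 2i + vitamin C and 15.9% of 69 in KO 2i + vitamin C. It differed by 53.0 points in serum (Fisher's exact test, Benjamini-Hochberg adjusted p = 2.56e-07), and the block by 39.9 points ± 15.6. The sites at chr6:83318089 and chr6:83318096 rose by 49.8 and 45.7 points.

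The Tet1 block at chr10:62342337-62342529, singled out after its values were seen, had all 6 sites called higher. Each site had 152 or more reads in WT serum and 170 or more in KO serum. Sites ran from 18.8% to 29.7% in WT serum and from 49.1% to 60.3% in KO serum, so that the ranges did not overlap. In 2i + vitamin C they ran from 3.51% to 19.7% in WT and from 2.52% to 17.9% in KO cells. The block differed by 32.3 points ± 7.37 in serum. At chr10:62342528 the change was 38.6 points, from 21.7% of 152 reads to 60.3% of 174 (Fisher's exact test, Benjamini-Hochberg adjusted p = 4.25e-10). A further Tet1 site in an intron at chr10:62333136 had the largest change among the called sites of this comparison, 60.1 points, from 17.7% of 17 reads (6.19 to 41.0) to 77.8% of 18 (54.8 to 91.0), with an adjusted p of 0.0182 by Fisher's exact test. It had 3.57% of 28 reads in WT 2i + vitamin C.

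**Figure D3:**
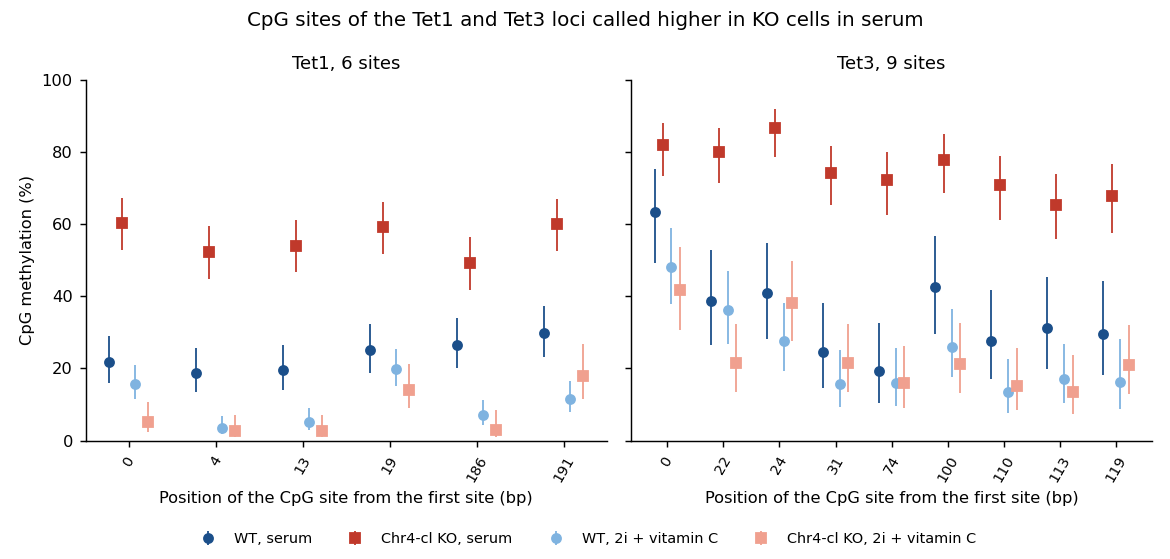
CpG methylation (%, y axis) at each site of the Tet1 block (6 sites) and the Tet3 block (9 sites) against the distance from its first site along the gene (bp, x axis, sites drawn evenly spaced) in 4 libraries. Points are single sites and bars 95% Wilson intervals; KO serum is the highest library at every site of both blocks.

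The remaining 2 called sites were single. At chr17:56459254 in an intron of Uhrf1, WT serum had 50% of 22 reads (30.7 to 69.3), KO serum 100% of 14 (78.5 to 100) and WT 2i + vitamin C 7.32% of 41 (adjusted p = 0.0454, Fisher's exact test). At chr12:3905990 in an intron of Dnmt3a, the 4 levels were 27.4% of 84 reads, 53.9% of 65, 4.32% of 162 and 0 of 41. Over genes, the difference outside the 5′ window was above 0 in all 7 genes with 5 or more sites, from 2.18 points ± 5.45 in Dnmt3a to 17.1 ± 13.7 in Tet2, with 16.5 ± 14.8 in Dnmt3l, 11.5 ± 4.67 in Tet3 and 8.99 ± 3.59 in Tet1. With reads pooled over sites it was -3.01 points in Dnmt3a and -3.52 in Uhrf1, the opposite sign. By the mean over sites it was also above 0 in 89.9% of 7624 protein-coding genes, with a median of 3.82 points there and 8.99 over the 7. Over the 180 sites together the difference was 7.17 points ± 2.54, but 2.21 when reads were pooled, which gives deep sites more weight, and 4.56 without the called Tet1 and Tet3 sites. Reads differed in number between the libraries, and the part of clone, depth and genotype in these differences was not tested.

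In 2i + vitamin C, where the question was whether the lines differ once methylation is low, 0 of 347 gene sites were called higher and 0 lower by Fisher's exact test. Over the genome 0.0897% of 458443 sites were called higher and 0.361% lower. At an unadjusted p under 0.05, 4 gene sites were higher and 16 lower, again without a count over the genome. The block differences of the Tet3 and Tet1 exons, 39.9 and 32.3 points in serum, were -0.821 ± 13.4 and -2.99 ± 4.38 in 2i + vitamin C. The difference of these differences was not tested. Of the 30 blocks, 5 differed between the lines by more than their counting interval in serum, all higher in KO cells. They were the Tet1 coding exon at chr10:62342337, an intron of Tet1, the last exon of Tet3, the Tet2 exon at chr3:133131002-133131049 and the exon of Dnmt3l. The Tet2 and Dnmt3l exons passed narrowly, at 13.7 points ± 13.2 and 16.5 ± 14.8. In 2i + vitamin C 1 block did. Neither count was made over blocks of the genome, so they do not set these genes apart from others. The block that passed in 2i + vitamin C was the Tet3 exon at chr6:83352704-83353046. It had 50.1% ± 6.19 in WT and 38.7% ± 7.55 in KO cells, a difference of -11.3 points ± 9.76. The KO library in 2i + vitamin C had the lowest depth, and a small difference was not detectable in it: the interval of the Dnmt1 exon difference, for example, was 15.7 points ± 30.6.

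**Figure D4:**
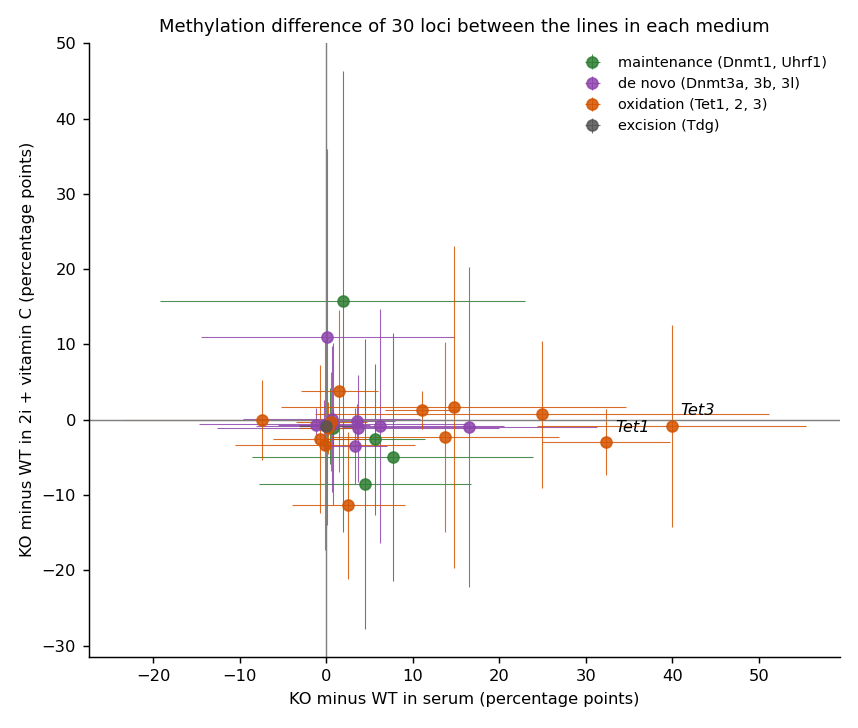
KO minus WT methylation difference (percentage points) of 30 blocks of CpG sites in serum (x axis) and in 2i + vitamin C (y axis), coloured by the role of the gene. Points are block means and bars 95% counting intervals; the Tet3 and Tet1 blocks at 39.9 and 32.3 points in serum lie near 0 in 2i + vitamin C.

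Between media, the methylated blocks of the genes were lower in 2i + vitamin C in both lines, and the unmethylated starts stayed near 0. In WT cells, 147 of 449 gene sites were called lower in 2i + vitamin C than in serum and 1 higher, that is 32.7% of them lower, against 31.8% of 628419 sites of the genome lower and 0.144% higher. In KO cells, 89 of 331 were called lower and 0 higher, 26.9% of them, against 28.6% of 437979 sites lower and 0.0297% higher. These shares were near those of the genome. The falls were almost all outside the 5′ window, 144 of 298 sites in WT and 88 of 187 in KO cells, while 3 of 151 sites within it were called lower in WT cells, all in Tet3. The shares of the genome were not split by this window, so counts on 1 side of it do not set the genes apart. Over 7624 protein-coding genes the median difference between media outside it was -26.0 points in WT and -35.0 in KO cells. At an unadjusted p under 0.05, 18 gene sites were higher in WT cells and 1 in KO cells, again without a count over the genome. The 1 site called higher in WT cells was in the Dnmt3l 5′ intron.

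By gene, 29 of 35 Dnmt1 sites outside the 5′ window, 24 of 31 Uhrf1 sites and 49 of 67 Tet3 sites were called lower in WT cells, but 15 of 77 in Dnmt3a and 10 of 54 in Tet1, 2 genes with large unmethylated blocks outside that window. In KO cells 35 of 37 Tet3 sites, 12 of 18 Uhrf1 sites, 13 of 67 Dnmt3a sites and 11 of 41 Tet1 sites were called lower. For Dnmt1 only 6 sites outside the window could be tested in KO cells, and 2 of them were called lower. Calls were not counted in this way for other genes of the genome, so these counts do not rank the 9 genes against them. Large single falls were seen at sites of writers, keepers and erasers. An intronic Dnmt3a site at chr12:3843166 went from 92.9% of 14 reads to 4.55% of 22 in WT cells, by -88.3 points (Fisher's exact test, Benjamini-Hochberg adjusted p = 5.88e-07). An upstream Uhrf1 site at chr17:56439776 went from 85.5% of 62 reads to 4.35% of 115, by -81.1 points (adjusted p = 6.74e-28 by the same Fisher's exact test), and 4 more sites within 300 bp of it were called lower, around the 5′ end of the neighbouring gene Arrdc5, which lies on the opposite strand. The Tdg site at chr10:82107175 described above changed by -82.8 points in WT cells (Fisher's exact test, adjusted p = 5.90e-07). In KO cells a Tet3 coding site at chr6:83352704 went from 93.0% of 114 reads to 12.6% of 87, by -80.3 points (Fisher's exact test, adjusted p = 1.05e-31), and a Tet2 coding site at chr3:133131002 from 89.0% of 91 to 11.1% of 72, by -77.9 points. A Dnmt3a site at chr12:3849659 and a Uhrf1 site at chr17:56457516 each changed by -75.5 points in WT cells. In KO cells sites of Uhrf1 at chr17:56458617 and chr17:56457534 and of Tet1 at chr10:62302386 changed by -76.2, -76.0 and -76.2 points.

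How much was kept differed between blocks. The 13 blocks with over 50% in WT serum kept a median of 40.5% of that level in WT 2i + vitamin C, from 19.4% in the Uhrf1 intron to 71.4% in the Dnmt3l exon. In KO cells the same blocks kept a median of 42.4% of the KO serum level, from 11.3% to 61.2%. All 13 were lower in 2i + vitamin C by more than the counting interval in both lines. For protein-coding genes with over 10% in serum, the median kept outside the 5′ window was 42.6% in 6072 genes in WT and 32.3% in 6339 genes in KO cells. Those are values of whole genes chosen at a lower serum level, so they are not like for like with the 13 blocks. Over the 180 gene sites outside the window, 46.0% was kept in WT and 37.2% in KO cells. At the Tet1 and Tet3 exons that differed in serum, WT cells kept 44.6% and 68.3%, and KO cells 13.4% and 30.9%. Their falls in WT cells were -13.0 points ± 5.68 and -11.2 ± 16.0, with no site called, and in KO cells -48.3 ± 6.42 and -51.9 ± 12.9, with all 6 and all 9 sites called. These falls share the serum libraries with the comparison between lines and are not separate evidence of it.

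**Figure D5:**
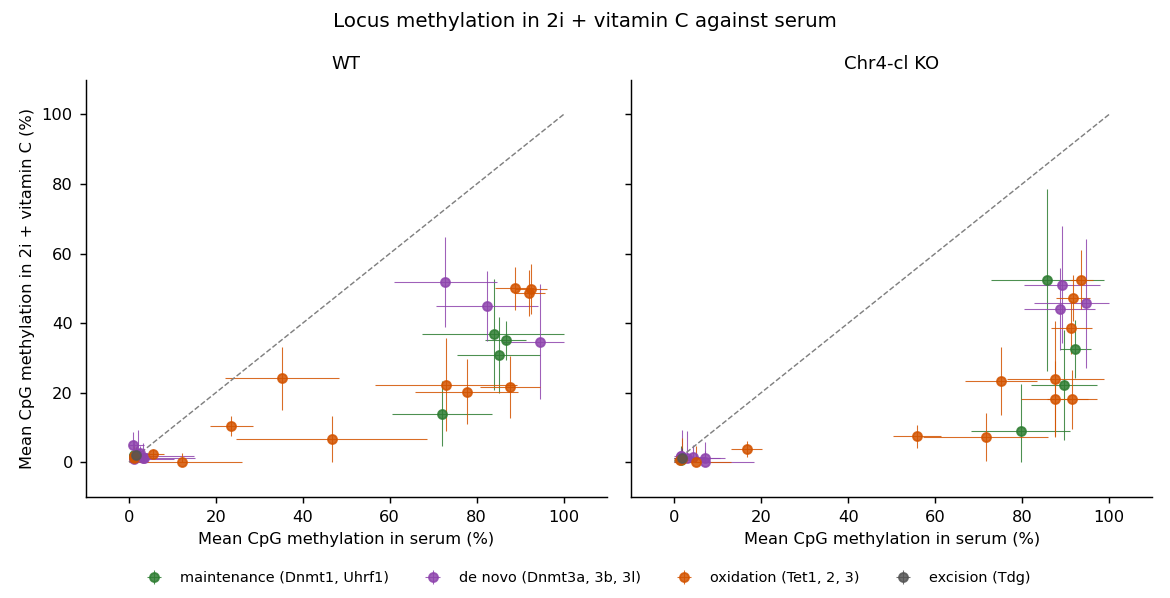
Mean CpG methylation in 2i + vitamin C (%, y axis) against serum (%, x axis) for 30 blocks in WT (left) and Chr4-cl KO cells (right), coloured by the role of the gene, with 95% counting intervals and the line of equal levels. Blocks above 50% in serum lie under the line in both lines, and blocks near 0% stay there.

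Annotated transcript starts more than 1 kb from the gene 5′ end were of both kinds. Those in the unmethylated blocks of Dnmt3a, Uhrf1 and Tet1 are described above, and some others lay in methylated DNA. The Dnmt3a block at chr12:3849446 above held the start at chr12:3849635, and 3 intronic sites near that at chr12:3895593 had 82.4% ± 11.8, 88.6% ± 8.15, 44.9% ± 10.1 and 44.0% ± 11.8 in the order used above. In Uhrf1, the exon at chr17:56452508 lay near the start at chr17:56452086, and 4 sites near that at chr17:56457449 had 85.1% ± 9.60, 89.6% ± 7.61, 30.8% ± 10.9 and 22.3% ± 15.8. The Tet1 intron near chr10:62328445, at 5.59% in WT serum, lay close to a start at chr10:62328052. These starts are annotated in GENCODE and not among the RefSeq starts used here.

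CpG density differed between unmethylated and methylated blocks in its median, with ranges that overlapped. The 12 blocks under 5% in WT serum held 196 sites with a median of 18.75 CpG sites within 100 bp on each side (6 to 37), and the 13 over 50% held 60 sites with a median of 6.5 (4 to 14). Grouped by RefSeq starts instead of the gene 5′ end, the 192 sites within 1 kb of a start had 1.76% ± 1.86 in WT serum and 1.21% ± 1.70 in KO 2i + vitamin C, and the 113 others had 60.4% ± 2.13, 71.5% ± 1.69, 27.4% ± 1.84 and 26.3% ± 2.35 in the order used above. The 68 coding exon sites among these had 72.7% ± 2.84, 84.8% ± 2.18, 32.4% ± 2.58 and 32.9% ± 3.26, and the 40 intronic ones 41.4% ± 2.49, 48.3% ± 2.46, 18.9% ± 1.98 and 15.8% ± 2.87. At matched CpG density the mean over the gene sites was below that of the genome in WT serum where CpG sites were sparse. Density was the number of CpG sites within 100 bp on each side, the site itself included. With under 5, 20 gene sites had 59.3% ± 3.06 against 74.8% at 42582 sites of the genome. With 5 to 9, 74 gene sites had 49.7% ± 2.42 against 60.5% at 88234. The standard deviation over these gene sites was 34.7 points at the 20 sites and 36.1 at the 74, a spread that the counting intervals leave out. Many of the sites also lie in shared blocks, and the difference from the genome was not tested. Where there were 10 or more, 211 gene sites had 10.9% ± 1.78 and 269379 sites of the genome 9.0%.

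The other genes of the pathway, 35 in 3 lists, were described by the same counts. All 26 with 5 or more sites near the 5′ end were under 5% there in WT serum and in KO 2i + vitamin C, but Mbd1 (6.67%), Mbd4 (6.81%) and Prdm14 (7.31%) were above it in KO serum, and Mbd4 (7.22%) in WT 2i + vitamin C. In serum, 18 of 1241 sites (1.45%) were called higher in KO cells and 0 lower, against 1.82% and 0.115% of the sites of the genome. The share called higher was thus not above that of the genome. Of the 18, 9 lay in Kdm2b, which encodes a CpG island-binding protein and was the single gene of the lists with 3 or more. In 2i + vitamin C, 1 of 1022 sites was called lower and 0 higher, against 0.361% and 0.0897% over the genome. Between media, 189 of 1286 sites (14.7%) were called lower in WT cells and 135 of 989 (13.7%) in KO cells, with 1 and 0 higher. These shares are below the 31.8% and 28.6% of all sites given above, and that difference was not tested. Of the maintenance partners and methyl-CpG readers, 29 of 416 sites fell in WT cells, in Mbd2 (10), Mbd1 (7), Usp7 (7) and Cdca7 (5), and 28 of 317 in KO cells, where Uhrf2 had 4. Of the base excision and deamination genes, 77 of 401 fell in WT cells, most in Parp1 (28), which encodes a sensor of DNA breaks, then Smug1 (10), Xrcc1 (10), Ung (9), Neil1 (6), Lig3 (5), Neil2 (5) and Apex1 (3), and 56 of 314 fell in KO cells, among them 6 in Apobec1. Of the regulators in ES and germ cells, 83 of 469 fell in WT cells, in Kdm2b (40), Idh2 (14), Prdm14 (9), Kdm1b (7), Dppa3 (5) and Cxxc5 (3) among others, and 51 of 358 in KO cells, among them 3 in Zfp57.

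Outside the 5′ window, Dnmt1 differed between media by -42.3 points ± 15.8 in WT cells. By the distance between the 4 mean levels, the genes most like Dnmt1 among 4664 were Plod3 (6.08 points, 5 sites), Pigo (8.33, 5 sites) and Bace2 (8.59, 7 sites). Plod3 had 70.1% in WT serum, 73.8% in KO serum, 30.5% in WT 2i + vitamin C and 39.1% in KO 2i + vitamin C. The likeness rests on few sites a gene.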

How the data were processed

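CpG methylation was measured by reduced representation bisulfite sequencing (RRBS), in which MspI cuts at CCGG and short fragments are sequenced, in 4 ES cell libraries, 1 per group (Chr4-cl WT and KO, serum and 2i + vitamin C), grouped by their labels. Per the study's methods, the authors used Trim Galore for trimming of paired reads and Bismark for alignment to mm9, then joined both strands of each CpG (versions not given in the sources used here). The deposited tables hold whole-number counts of all reads and of methylated reads per CpG, and the methylated fraction, which the authors took from these counts. Duplicate reads cannot be told apart by position in RRBS, so reads are not independent molecules, and intervals and limits for a count of 0 (3 reads) cover counting error only.

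Levels were recomputed as methylated over all reads at sites with at least 10 reads. Means used sites covered in all 4 libraries. The tables of WT serum and KO 2i + vitamin C held a second block of rows (1161870 and 1575598), of which 59 and 54 had 10 reads, and rows that repeated a position (332 and 830) were left out. Summed reads were 42684672 to 90649194 and median coverage 25 to 50 reads. Each of the 4 contrasts used a two-sided Fisher's exact test per site with Benjamini-Hochberg adjustment over all sites tested in the genome (Python 3.11.15, numpy 2.4.6, scipy 1.17.1, numba 0.67.0, pandas 2.3.3, pysam 0.24.0, matplotlib 3.10.9), and the code was tested on simulated data. Blocks are runs of 3 or more sites at most 300 bp apart. RefSeq starts came from 16 promoter sequences (GRCm38.p6), each of which matched mm9 exactly once.

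Named sites were up to 5 called sites with the largest change in each contrast and called sites within 300 bp of them. Other pathway genes were named where 3 or more sites were called. Genes were compared with others where 5 or more sites were covered, and the 3 genes most like the one with the largest WT fall between media were named. The genes, lists and rules were chosen with earlier results of these data known. Alternatives changed the coverage minimum, the change threshold, the test, the window and the weighting of sites and genes.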

Additional observations from a re-analysis of the deposited data

How the results depend on the processing

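No paired analysis was possible because each group has 1 library. Of 136 alternatives for the main counts and means, 107 left the value within its limits and 29 moved it, and of 496 for single genes 28 did. The limit was a fixed ratio to the main value for a count and the counting half-width for a mean. Leaving out the second block of rows was among the alternatives and could hardly move a value, since few of its rows had 10 reads. The tally is therefore no measure of how firm the results are. With no test, a change of 20 points alone gave 2 sites lower and 38 higher for KO minus WT in serum, and 5 lower and 5 higher in 2i + vitamin C. A 10-point threshold gave 1 site lower there. Between media in WT cells, 69 sites were lower when only the 305 sites covered in all libraries were used, and 2 were higher with a minimum of 5 or 20 reads, a 10-point threshold or no test. Outside the 5′ window, pooling reads gave 2.21 points for KO minus WT in serum, 2.00 in 2i + vitamin C, where the mean over sites was -0.719, and -24.9 and -25.1 between media in WT and KO cells. Without Dnmt3a, the gene with the most sites, the values were 9.79 in serum and -26.3 and -37.3 between media. Counting each gene once gave -27.6 and -36.2 between media, and -3.60 near the 5′ end in KO cells. A 5′ window of 500 bp gave -17.0 and -24.0 between media, and 1 of 2 kb gave -26.0 and -35.8. Sites covered in both libraries gave -27.1 in WT cells. Chosen after seeing the data, windows around RefSeq starts gave 11.2 points in serum and -33.0 and -45.2 between media, and leaving out the called Tet1 and Tet3 sites gave 4.56 in serum. Leaving out Dnmt3l and Tet3, also chosen then, left the 5′ differences between -0.870 and 0.538 points. Signs that turned belonged to differences whose mean over sites was within its counting interval, near the 5′ end, for KO minus WT in 2i + vitamin C and, with reads pooled, for Dnmt3a and Uhrf1 in serum. Why each choice moved its value was not tested. The low depth of KO cells in 2i + vitamin C limits what single sites can show.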
